A study of Caenorhabditis elegans with 2 samples.

Results

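The regions described here are 744 peaks of the protein LSL-1 that lay inside introns and away from promoters. They were taken from the list of 3897 peaks that passed a threshold on the irreproducible discovery rate (IDR), a measure of how stably a peak is ranked in replicate experiments, and make up 19.1% of that list (95% Clopper-Pearson interval 17.9 to 20.4). A peak was kept if its summit, the base of strongest signal, fell within the body of a protein-coding gene of chromosomes I to V or X and in none of that gene's exons. The summit also had to lie outside every window from 1000 bp upstream to 200 bp downstream of a protein-coding 5′ end and more than 200 bp from any tRNA gene. The other IDR peaks were 2221 promoter peaks, 521 intergenic peaks, 192 exonic peaks and 219 peaks near tRNA genes.

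Chromatin immunoprecipitation with an antibody to green fluorescent protein (GFP) and sequencing was carried out on Caenorhabditis elegans of strain OP720. These worms are unc-119(tm4063) mutants with the transgene wgIs720, which carries unc-119(+) and lsl-1 fused to the tags TY1, EGFP and 3xFLAG. The protein detected is thus a tagged copy, and the transgene also supplies the gene that the mutation affects. Young adults of both sexes, 69 h old and synchronised by bleaching and starvation of the first larval stage, were used whole, so the cells in which a region was bound are not known. There were 2 biological replicates in 1 group and no second condition, and the control library that the labels point to was not analysed here. All comparisons below are therefore between classes of regions or genes within these lists. The files hold no read counts and the depth is unknown, so intervals and p-values cover the counting of regions alone. Neighbouring regions and copies of 1 repeat are not independent of each other.

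LSL-1 is a zinc finger protein known as a transcription factor of the C. elegans germline, the tissue that makes sperm and oocytes. Introns of worm genes are mostly short, but the longer ones can hold enhancers, the start sites of shorter transcripts, small noncoding RNA genes and copies of transposable elements. A peak inside an intron can therefore sit at very different kinds of sequence.

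A 7-base word, TACNGTA, was counted on both strands within 50 bp of each summit, and it is written in capitals below. Its reverse complement has the same form, so it reads as a palindrome around a free central base. The word was chosen with earlier results of these data known. The first 4 sequences show 50 bases on either side of the summit for the 4 strongest members of those on chromosomes II to V, on the plus strand of WBcel235 (RefSeq sequence, the build called ce11 in the labels). They lie at chrIII:10877689-10877789 in intron 5 of C44B9.2, at chrIV:4653861-4653961 in intron 3 of psr-1, at chrII:12808907-12809007 in intron 4 of spds-1 and at chrIII:2782008-2782108 in intron 3 of Y71H2AM.6. None of these windows had another copy in the genome, and 3 of the 4 hold the word.
C44B9.2: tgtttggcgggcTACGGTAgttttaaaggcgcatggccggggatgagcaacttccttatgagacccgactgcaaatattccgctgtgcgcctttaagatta
psr-1: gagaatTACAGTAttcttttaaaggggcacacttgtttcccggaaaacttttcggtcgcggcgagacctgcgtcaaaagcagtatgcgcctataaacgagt
spds-1: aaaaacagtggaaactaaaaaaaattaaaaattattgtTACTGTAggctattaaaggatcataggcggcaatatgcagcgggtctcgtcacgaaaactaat
Y71H2AM.6: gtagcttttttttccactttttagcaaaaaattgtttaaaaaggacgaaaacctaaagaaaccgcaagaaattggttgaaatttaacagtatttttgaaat

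The next 3 windows were selected to illustrate repeated sequence with 2 or more words. They lie at chrIV:3293923-3294023 in intron 2 of W08E12.8, at chrIII:7893364-7893464 in intron 1 of fahd-1 and at chrV:15514183-15514283 in intron 9 of lgc-31. Their windows had 1568, 1737 and 1326 other copies in the genome. In each of the 3, a pair of words stood 21 bp apart from start to start.
W08E12.8: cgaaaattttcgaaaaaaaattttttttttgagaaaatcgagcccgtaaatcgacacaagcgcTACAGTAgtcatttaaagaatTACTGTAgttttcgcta
fahd-1: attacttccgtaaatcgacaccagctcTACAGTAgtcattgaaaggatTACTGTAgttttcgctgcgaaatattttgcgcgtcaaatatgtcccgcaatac
lgc-31: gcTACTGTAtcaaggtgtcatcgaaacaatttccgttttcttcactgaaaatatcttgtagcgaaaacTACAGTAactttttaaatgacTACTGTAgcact

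The last window, chrIV:14765042-14765142 in intron 2 of Y57G11C.5, lies within 200 bp of an annotated small nuclear RNA (snRNA) gene and had no other copy. It holds the word once, near 1 end of the window.
Y57G11C.5: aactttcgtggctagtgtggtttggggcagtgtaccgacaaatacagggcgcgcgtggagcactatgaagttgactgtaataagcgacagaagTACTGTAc

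The strongest members ranked among the strongest IDR peaks and mostly held similar ranks in both replicates. The IDR threshold keeps peaks with stable ranks in these same 2 replicates, so such agreement follows in part from the selection. Regions are given by their rank, where 1 is the strongest, because the deposited signal is on the caller's own scale and is comparable only within a list. The strongest member lay in intron 4 of pals-1, a gene of the pals family, and ranked 15 in the IDR list, 14 in replicate 1 and 20 in replicate 2. Its signal was 3301 in the pooled list, 2514 in replicate 1 and 799 in replicate 2. The peak in C44B9.2 ranked 31 in all 3 lists. The peak in psr-1, a receptor for phosphatidylserine on dying cells, ranked 46 in the IDR list, 47 in replicate 1 and 44 in replicate 2. The peak in spds-1, spermidine synthase, ranked 51, 51 and 49 in the same order. These first 4 members held their places to within 6 ranks.

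The next members lay in genes of varied function. In the IDR list, nhr-64, a nuclear hormone receptor, ranked 89, Y71H2AM.6 ranked 94, the nucleotide sugar transporter gene nstp-10 ranked 99 and ZK792.7 came next, at 108 in replicate 1 and 99 in replicate 2. The peak in mex-3, which encodes a KH-domain RNA-binding protein of the germline and early embryo, ranked 110 in the IDR list, 110 in replicate 1 and 113 in replicate 2. The peak in mdt-19, a Mediator subunit, ranked 136 with replicate ranks of 133 and 156, and that in unc-33, needed for axon growth, ranked 147 with replicate ranks of 139 and 174. Further down, T06D8.10 ranked 153, Y57G11C.5 ranked 162, the glycosaminoglycan synthesis gene sqv-8 ranked 179 and lmd-3 ranked 184. The calcium pump gene mca-3 ranked 186, the tyrosine phosphatase gene ptpn-22 ranked 191 and lit-1, a Nemo-like kinase of Wnt signalling, ranked 206. The endocytic recycling gene rme-1 ranked 216 and the tropomodulin gene unc-94 ranked 220, the latter with 200 in replicate 1 and 302 in replicate 2. In both replicates all 20 were among the 3897 strongest regions. Of the 20, 12 held the word, 18 had no other copy in the genome, and the promoter of the host gene was bound in 3. Over all 744 members, 76.2% were among the strongest of both replicates and 53.9% held the word. No other copy was found for 33.6%, and the host promoter was bound for 24.5%.

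**Figure D1:**
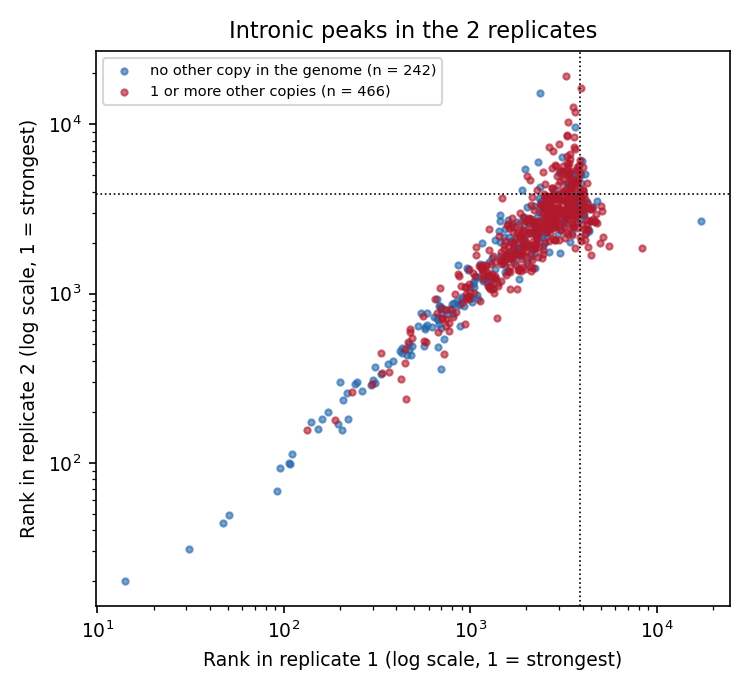
Rank of each intronic peak in replicate 1 (x axis) and replicate 2 (y axis), both on log scales with 1 the strongest, for the 708 members matched in both full lists; colour shows whether the summit window had another copy in the genome, and dotted lines mark rank 3897. The strongest members lie close to the diagonal and mostly have no other copy, and the spread widens near rank 3897.

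Across all members the replicates differed most near the threshold. A summit within 100 bp was found among the 3897 strongest regions of replicate 1 for 677 members (91.0%) and of replicate 2 for 617 (82.9%). Both lists held 567 members (76.2%, 73.0 to 79.2), and neither held 17. In the full lists 738 members were found in replicate 1, 714 in replicate 2, and none was missing from both. The plot of ranks in the replicates shows the 708 members found in both, whose ranks had a Spearman correlation of 0.830, as a description over regions of 1 pair of libraries. That value is no test of agreement, because the IDR list was chosen for stable ranks in these same replicates. The summit of a member lay a median of 4 bp from that of replicate 1 and 11 bp from that of replicate 2. Among promoter peaks 82.6% were in the top of both replicates, a higher share than among members (odds ratio 0.676, 0.551 to 0.832, adjusted p = 0.000238, two-sided Fisher's exact test). Adjustment by the method of Benjamini and Hochberg ran over the 15 main tests. Within rank quartiles of the IDR list the difference did not pass the threshold, and it ran the other way in the 2 weaker ones. From the strongest quartile to the weakest, members were in both at 99.2%, 98.4%, 86.8% and 39.5%, and promoter peaks at 99.9%, 98.98%, 83.1% and 30.5%. The lowest adjusted p of the 4 Fisher's exact tests was 0.0873.

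The members sat lower in the IDR list than promoter peaks. Their median rank was 2279 (15 to 3897), against 1599 for promoter peaks and 1949 for intergenic peaks. The upper 50% of the list held 304 members (40.9%) and 58.8% of promoter peaks (odds ratio 0.483, 0.407 to 0.574, adjusted p = 3.56e-17, Fisher's exact test). The weakest member, in gvd-1, was the last peak of the list, with a signal of 114.8, and ranked 3638 in replicate 1 and 11877 in replicate 2. The strongest intronic region outside the IDR list, in mbtr-1, ranked 3903 with a signal of 114.6. The pooled list holds 8936 regions that meet the same positional rule, of which the members are 8.33%. The 8192 others, called lower-ranked intronic regions here, share the members' gene context and served as their comparison.

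The 744 members lay in 614 host genes, 3.49% of the 17588 protein-coding genes with intron sequence that the rule could select. A single member was found in 513 hosts, and 7 members fell in the introns of 2 genes. Median peak width was 436 bp (109 to 949). The median intron was 766 bp long (46 to 18310), against 975 bp for lower-ranked regions, and the median summit lay 1698 bp downstream of the host's 5′ end (201 to 40062). Lower-ranked regions lay farther in, at a median of 2650.5 bp. The members include 27 summits within 250 bp of the host's 5′ end, just past the promoter window.

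Members were found more often in first introns and at internal transcript starts than lower-ranked regions were. The first intron held 223 members (29.97%, 26.7 to 33.4) against 21.3% of lower-ranked regions (odds ratio 1.58, 1.33 to 1.87, adjusted p = 1.69e-07, Fisher's exact test). The second intron held 127 and the third 81. An annotated transcript start of the host other than its 5′ end lay close by, with the summit from 500 bp upstream to 200 bp downstream of it, for 147 members (19.8%) and 8.86% of lower-ranked regions. The odds ratio was 2.53 (2.07 to 3.09, adjusted p = 1.22e-17, Fisher's exact test). A summit can have both traits. Away from internal starts, a setting chosen after seeing the data, first introns held 24.96% of members and 19.9% of lower-ranked regions. The odds ratio for first introns was then 1.34 (unadjusted p = 0.00423, Fisher's exact test). The rule is built on the 5′ end of the whole gene and does not remove summits at the starts of shorter transcripts.

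Among the 100 strongest members, 35 were near an internal start and 43 were in a first intron. The peak in rme-1 lay 5755 bp from the gene's 5′ end and 49 bp upstream of an internal start. That in nkcc-1, a cation-chloride cotransporter, lay 8297 bp from the 5′ end and 44 bp upstream of an internal start. The summits in mca-3, F56F11.4 and the sideroflexin gene sfxn-1.4 lay 121, 15 and 46 bp upstream of such starts, and that in Y57G11C.5 lay 179 bp downstream of one. None of these 6 genes had a bound promoter at its 5′ end. The host promoter was bound for 12 of the 100 strongest members, so this does not set the 6 genes apart.

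For the host genes as a whole, the share with a bound promoter was close to that of genes that hosted lower-ranked intronic regions alone. The promoter window of 140 of 614 hosts (22.8%) held an IDR summit, against 23.1% of those 3656 genes (odds ratio 0.984, 0.797 to 1.21, adjusted p = 0.918, Fisher's exact test). Both shares are above the 14.2% over all 19973 protein-coding promoters. With the upper 50% of the IDR list alone the shares were 9.82% of hosts and 14.8% of the comparison genes (odds ratio 0.625, p = 0.0211, Fisher's exact test). The call thus depends on the peaks taken. The direction was the same there but changed under other settings, as without replicate 1 (odds ratio 1.22).

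**Figure D2:**
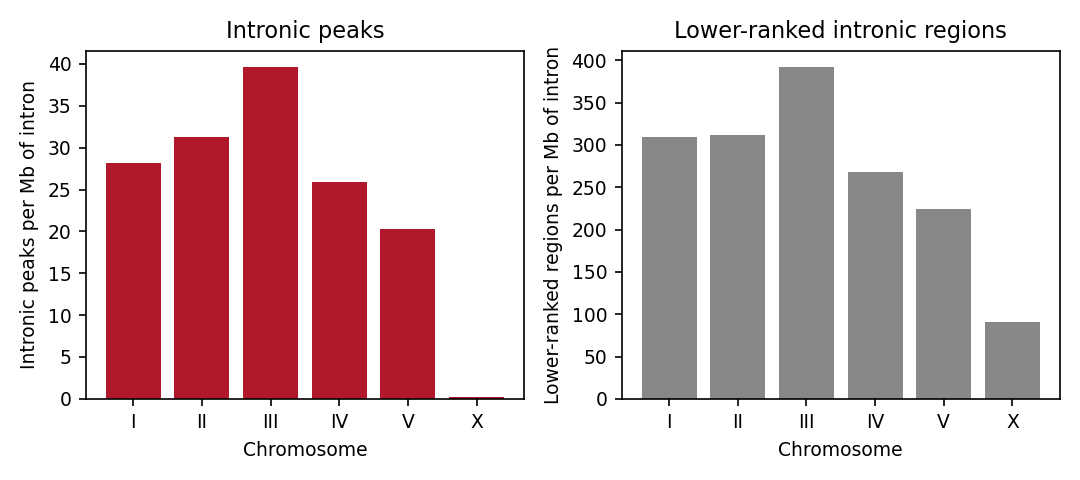
Intronic peaks (members) per Mb of intron sequence that the rule could select, by chromosome, beside the same for lower-ranked intronic regions. Chromosome III has the most members per Mb, at 39.6, and X has 1 member in all.

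The X chromosome was almost without members. It held 1 of 744 (0.134%, 0.00340 to 0.747), against 469 of the 8192 lower-ranked regions (5.73%; odds ratio 0.0222, 0.000559 to 0.125, adjusted p = 7.78e-17, Fisher's exact test). Per Mb of eligible intron, III held 39.6 members, II 31.2, I 28.2, IV 25.9 and V 20.3, while X held 0.193. The density of lower-ranked regions on X was 90.6 per Mb, lower than the 224 on V and the 392 on III. On the autosomes 8.30% to 9.18% of intronic regions were IDR peaks, a narrow range, and on X 0.213%. With X left out, the 743 other members were 19.4% of the IDR list, against 19.1% with X. Few IDR peaks in all thus lay on X. The other classes were not counted apart there, and whether members were scarcer on X than those was not tested. With peaks near tRNA genes kept, 1.18% of 849 intronic peaks lay on X, against 6.11% of lower-ranked regions. Intronic peaks near tRNA genes thus lay on X more often than members did. The X member, in mom-1, a gene of Wnt secretion named here because it is the only one, ranked 3807 in the IDR list, 3922 in replicate 1 and 3964 in replicate 2. It held no word and had no other copy.

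The word TACNGTA was common at member summits. It was present within 50 bp of 401 summits (53.9%, 50.2 to 57.5). In flanks 200 to 250 bp from the same summits the share was 15.2%, with 326 members holding it at the summit alone and 38 in the flanks alone (adjusted p = 1.63e-57, exact McNemar test). Lower-ranked intronic regions held it at 15.6% (odds ratio 6.32, 5.39 to 7.41, adjusted p = 1.84e-112) and promoter peaks at 30.7% (odds ratio 2.64, 2.22 to 3.14, adjusted p = 1.33e-28), both by Fisher's exact test. Of windows of the same length centred on the 19973 protein-coding 5′ ends, 2.03% held it. Among the members 255 held 1 word, 140 held 2 and 6 held 3 or more.

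The forms of the word with different bases at the centre were also counted apart. The form with A or T there, TACAGTA read on either strand, was present in 338 members (45.4%) and 16.2% of promoter peaks (odds ratio 4.30, 3.57 to 5.19, adjusted p = 4.94e-54, Fisher's exact test). The form with C or G, TACCGTA on either strand, was present in 108 members (14.5%) and 15.5% of promoter peaks (odds ratio 0.923, 0.723 to 1.17, adjusted p = 0.555, Fisher's exact test). Both comparisons with promoter peaks changed with repeats and with rank, as given with those results. Both forms were more frequent at members than at lower-ranked intronic regions, which held them at 13.1% and 3.81% (odds ratios 5.53 and 4.29, adjusted p = 7.90e-90 and 1.21e-27 over 20 tests, Fisher's exact test). The 63 members with the C or G form alone had a median rank of 1465, and 50.8% were in a first intron. The 293 with the A or T form alone had a median rank of 2397, and 24.6% were in a first intron. Intergenic peaks were closer to the members, with the A or T form in 32.1% (odds ratio 1.76, adjusted p = 3.08e-06 over 20 tests) and the C or G form in 16.7% (odds ratio 0.847, 0.616 to 1.17, adjusted p = 0.320), by Fisher's exact test.

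**Figure D3:**
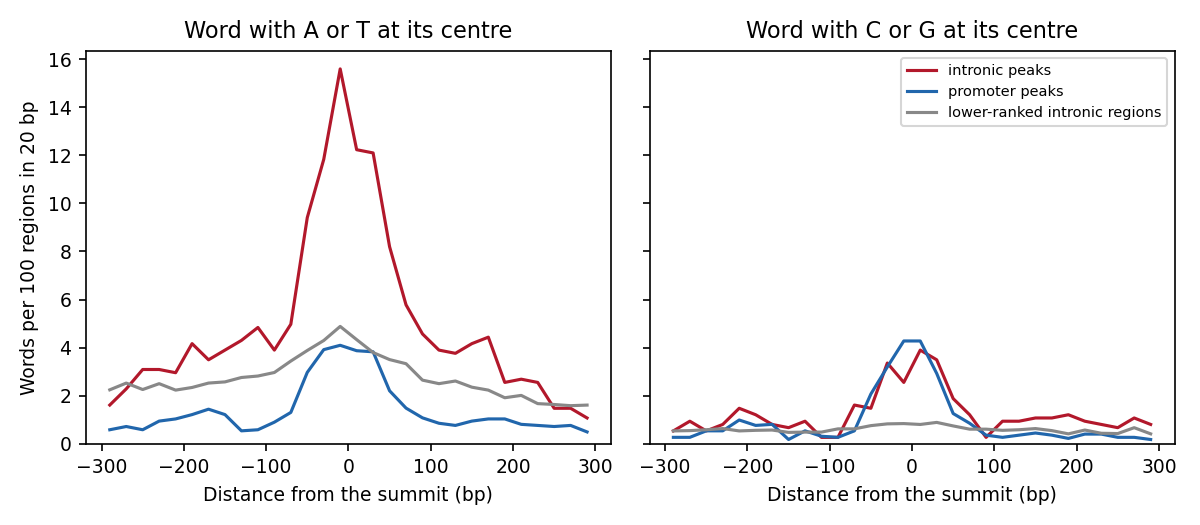
Number of words per 100 regions in steps of 20 bp (y axis) against distance from the summit in bp (x axis), for the form with A or T at its centre (left) and the form with C or G (right). The A or T form reaches 15.6 per 100 intronic peaks in the step just before the summit and 4.10 per 100 promoter peaks, while the C or G form reaches similar heights in both classes.

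The plot of words by distance shows both forms centred on the summit. In the 20 bp just before it, members held 15.6 words of the A or T form per 100 regions, promoter peaks 4.10 and lower-ranked regions 4.88. In the 20 bp just after it, members held 3.90 words of the C or G form per 100 regions and promoter peaks 4.28.

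A search over all words of 6 bases, counted on both strands, returned parts of the same word and a second group. Compared with flanks, 164 words (7.88%) were higher and 5.05% were lower at member summits by exact McNemar tests at an adjusted p under 0.05. Compared with promoter peaks, 133 (6.39%) were higher and 131 (6.30%) lower by Fisher's exact tests. The word ACAGTA stood first, in 47.3% of members, 13.7% of flanks, 18.3% of promoter peaks and 15.03% of lower-ranked intronic regions. CTACAG, which overlaps the 7-base word and extends it by 1 base, was present in 37.1% of members and 11.8% of promoter peaks. GGCGCA, which is not contained in the 7-base word, was present in 18.8% of members, 4.44% of flanks and 18.96% of promoter peaks. Words that overlap it were AGGCGC, in 18.7% of members and 16.4% of promoter peaks, and GCGCAC, in 15.1% and 14.9%. CCTTTA was present in 22.6% of members, 6.85% of flanks and 17.1% of promoter peaks, and AAAGGC in 20.4%, 6.18% and 16.4%. These words stood among the first 13 against flanks, and their shares in members and promoter peaks were closer than those of ACAGTA.

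Counted over all ranks, members lay in repeated sequence more often than lower-ranked regions or promoter peaks did. The window of 50 bases on either side of the summit had at least 1 other copy in the genome, by a blastn match of 80% identity or more over 50 bp or more, for 494 members (66.4%, 62.9 to 69.8). The share was 45.2% of lower-ranked intronic regions (odds ratio 2.40, 2.04 to 2.82, adjusted p = 2.08e-28) and 22.1% of promoter peaks (odds ratio 6.97, 5.79 to 8.41, adjusted p = 5.13e-104), by Fisher's exact test. Of intergenic peaks 54.7% had a copy (odds ratio 1.64, adjusted p = 5.00e-05 over 20 tests, Fisher's exact test). The excess over lower-ranked regions was not seen in the strongest rank quartile of the IDR list. In that quartile 39.7% of members had a copy, and in the weaker quartiles 63.4%, 74.1% and 75.7%. The quartiles were not tested against lower-ranked regions. The shares also depend on the match required. At 90% identity over 80 bp, a setting chosen after seeing the data, 23.1% of members, 15.98% of lower-ranked regions and 5.72% of promoter peaks had another copy (odds ratios 1.58 and 4.95). The summit base lay in a masked repeat of the reference for 52.6% of members and 49.1% of lower-ranked regions (odds ratio 1.15, 0.984 to 1.34, adjusted p = 0.0901, Fisher's exact test). Under the looser match, at least 100 copies were found for 239 members (32.1%) and 5.40% of promoter peaks, and at least 1000 for 90 members. How reads that match several places were assigned is not given in the sources used here, so a peak in such a window cannot be tied to that copy alone. Its part in the results was not tested beyond the values given with and without copies.

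**Figure D4:**
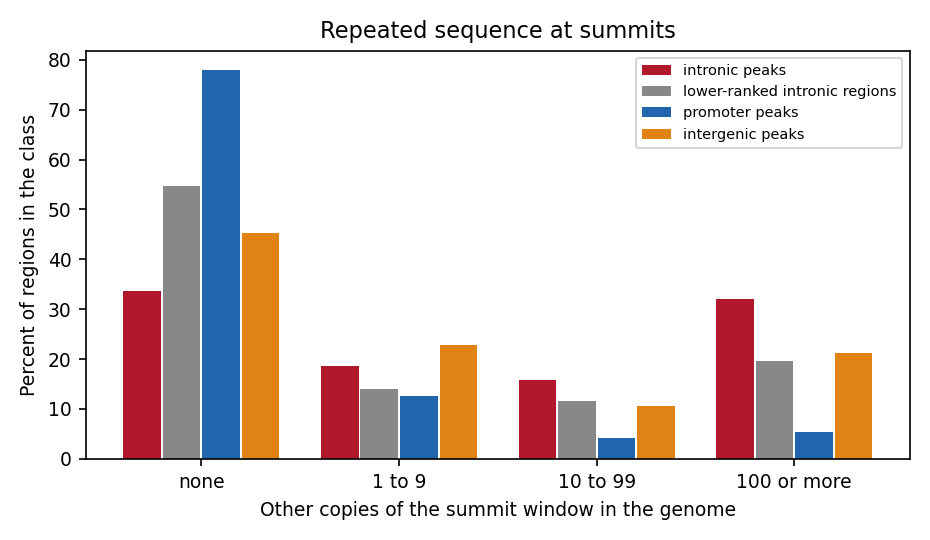
Share of regions in each class (y axis, percent) by the number of other copies of the summit window in the genome (x axis). Among intronic peaks 33.6% have no other copy and 32.1% have 100 or more, against 77.9% and 5.40% of promoter peaks.

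The word and the repeats went together. Among members with no other copy 34.8% held the word, with 1 to 9 copies 34.1%, with 10 to 99 copies 50.4% and with 100 or more 87.03%. Over the same steps lower-ranked intronic regions went from 229 of 4490 to 41.6%, and promoter peaks from 24.7% to 78.3%. The A or T form differed most between the steps, from 19.2% of members with no copy to 84.9% of those with 100 or more, while the C or G form was present in 17.6%, 11.6%, 13.7% and 13.4%. Among the 250 members with no other copy, the word was still more frequent than in lower-ranked regions with none (odds ratio 9.92, 7.31 to 13.4, adjusted p = 1.70e-42) and in promoter peaks with none (odds ratio 1.62, 1.21 to 2.17, adjusted p = 0.00120), by Fisher's exact test over 20 tests. Among windows with copies the word was present in 63.6% of members and 51.8% of promoter peaks, with the same odds ratio of 1.62 (1.25 to 2.11, adjusted p = 0.000356, Fisher's exact test). Both values are below the 2.64 over all windows, where members had copies more often. For the A or T form the odds ratio against promoter peaks was 1.94 with no copy (19.2% against 10.9%, adjusted p = 0.000512) and 2.65 with copies (58.7% against 34.9%, adjusted p = 1.43e-13), by Fisher's exact test. For the C or G form it was 1.24 with no copy (17.6% against 14.7%, adjusted p = 0.285) and 0.662 with copies (12.96% against 18.4%, adjusted p = 0.0263), by Fisher's exact test. The members with no copy thus held both forms at like shares.

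Repeated and single-copy members differed in other ways as well, given here as a description. The median rank was 1728.5 with no copy, 2079 with 1 to 9, 2564 with 10 to 99 and 2736 with 100 or more. The share found in the top regions of both replicates was 84.4%, 82.6%, 70.9% and 66.5% over the same steps. First introns held 38% of the members with no copy and 20.5% of those with 100 or more. An internal transcript start was near 30.8% of the former and 10.04% of the latter.

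**Figure D5:**
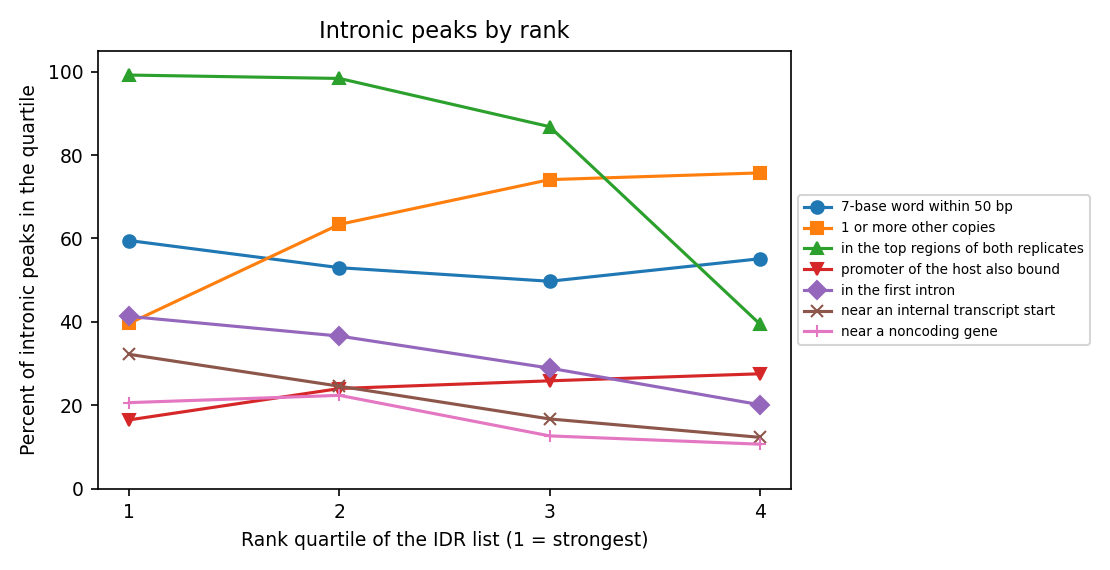
Percent of intronic peaks with each feature (y axis) by rank quartile of the IDR list, 1 the strongest (x axis). The share with another copy rises from 39.7% to 75.7% while the share with the 7-base word stays between 49.7% and 59.5%.

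The word kept its frequency down the ranks in members but not in promoter peaks. From the strongest quartile to the weakest it was present in 59.5%, 53.0%, 49.7% and 55.1% of members, and in 52.2%, 25.9%, 19.2% and 14.5% of promoter peaks. The odds ratios were 1.34 (0.893 to 2.03), 3.22, 4.16 and 7.25 (4.95 to 10.7), and Zelen's exact test of equal odds over the quartiles gave p = 2.18e-08. In the strongest quartile alone the difference in TACNGTA did not pass the threshold (adjusted p = 0.154, Fisher's exact test over 12 tests). The A or T form did differ there, with 43.8% of members and 23.7% of promoter peaks (adjusted p = 1.92e-05, Fisher's exact test). Its odds ratios over the quartiles were 2.50 (1.64 to 3.79), 3.98, 5.82 and 8.79 (5.81 to 13.5). Zelen's exact test of equal odds gave p = 8.54e-05 for that form. The C or G form fell with rank in both classes, from 23.1% to 11.1% of members and from 30.6% to 4.43% of promoter peaks. Its odds ratios over the quartiles were 0.684 (0.418 to 1.09), 1.40, 1.68 and 2.69 (1.41 to 5.25), with p = 0.00188 in Zelen's exact test of equal odds. The odds ratio was below 1 in the strongest quartile alone, where its interval included 1, and above 1 in each of the others. That quartile, where the form was most frequent, held 16.3% of members and 32.2% of promoter peaks. The pooled value near 1 therefore mixes the form with rank and does not describe the quartiles. In the weakest quartile the form was more frequent in members (adjusted p = 0.00204, Fisher's exact test). As the plot by rank quartile shows, copies moved with rank in members, from 39.7% to 75.7%, and less in promoter peaks, from 18.9% to 26.1%. First introns fell over the quartiles from 41.3% to 20.2% of members and internal starts from 32.2% to 12.3%.

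Pairs of words at a fixed distance were common. Among the 146 members with at least 2 words, 65 had 2 words whose starts were 21 bp apart, as in the windows of W08E12.8, fahd-1 and lgc-31 printed above, and 17 had words 32 bp apart. The spacing of 21 bp was also the most common in promoter peaks (21 regions) and was found in 130 lower-ranked intronic regions. In the latter, 11 bp was more common (147 regions), a spacing found in 2 members. The intron sequence that the rule could select holds 22823 such words, 736 per Mb, and 565 of them (2.48%) lay within 50 bp of a member's summit. On the autosomes, words with a partner 21 bp away were near a member at 9.36% (163 of 1741) and the others at 2.06% (402 of 19518; odds ratio 4.91, 4.04 to 5.95, adjusted p = 3.86e-48, Fisher's exact test over 3 tests). Both words of a pair were counted, so 1 summit can enter with 2 words, and pairs can also be copies of 1 repeat. The words are thus not independent of each other, and the interval and p-value do not allow for this. Lower-ranked regions of the pooled list were also nearer to pairs. Over all chromosomes they were near 20.5% of paired words and 8.29% of the others. For autosomal words without a partner, the C or G form was near a member at 2.29% and the A or T form at 1.99% (odds ratio 1.16, 0.918 to 1.45, adjusted p = 0.197, Fisher's exact test).

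X introns held 302 words per Mb, fewer than the 677 to 961 of each autosome, and 8 paired words. The 1 member on X held no word. None of the 1564 words in X introns lay near a member's summit, against 2.66% of the 21259 on the autosomes. The part of word density in the scarcity of members on X was not tested.

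A further set of members lay at small noncoding RNA genes nested in the intron. A noncoding gene other than a tRNA was within 200 bp of 117 members (15.7%) and 6.70% of lower-ranked regions (odds ratio 2.60, 2.08 to 3.23, adjusted p = 1.87e-15, Fisher's exact test). Small nucleolar RNA (snoRNA) genes, which guide modification of other RNAs, were near 44 members (5.91%) and 0.403% of lower-ranked regions (odds ratio 15.5, 9.60 to 25.4, adjusted p = 3.42e-27 by Fisher's exact test, over 8 biotypes). For snRNA genes, whose RNAs act in splicing, the figures were 32 members (4.30%) and 0.110% (odds ratio 40.8, 18.9 to 97.6, adjusted p = 1.04e-26, Fisher's exact test). The class annotated as ncRNA was near 63 members (8.47%) and 4.15% of lower-ranked regions (odds ratio 2.14, 1.59 to 2.84, adjusted p = 1.91e-06, Fisher's exact test). These classes overlap, because a summit can lie near genes of several classes. Of the 117 members, 75 lay near an snRNA or snoRNA gene, and some of these also lay near an ncRNA gene. Whether ncRNA genes, or noncoding genes as a whole, were in excess without those 75 was not tested. For piRNA, pseudogene, antisense RNA, miRNA and lincRNA genes the adjusted p of Fisher's exact test was 0.300 or more, and 4, 7, 4, 0 and 0 members were near them.

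Members at snRNA or snoRNA genes are compared with the rest as a description, with no test. Of the 75, 4 held the word, against 397 of the other 669 (59.3%). Their windows had a median GC content of 51.5%, against 38.6% in the others. The top of both replicates held 64 of the 75. At snoRNA genes 6 of 44 windows had another copy, and at snRNA genes 23 of 32. The highest-ranked was the member in Y57G11C.5, at rank 162, and the next, in plpr-1 and ckk-1 and named after their values were seen, ranked 331 and 475 beside snoRNA genes.

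Some host genes held several members. There were 81 hosts with 2 members, 13 with 3, 5 with 4 and 2 with 5. In unc-31, which encodes the CAPS protein of dense-core vesicle release, the 5 members ranked from 1394 to 3300, held no word, and each lay within 200 bp of an snRNA gene. In dhhc-7, a palmitoyltransferase gene, the 5 members ranked from 1435 to 3384, each held the word, and each had other copies, from 6 to 70. In glr-2, a glutamate receptor gene, the 4 members ranked 1162, 1191, 1316 and 2332, and each lay at a gene of SL2 RNA (sls-2.5, sls-2.16 or sls-2.18), the spliced leader that is joined to downstream messages of operons.

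Mixed cases were found too. In zfp-1, the worm counterpart of the chromatin protein AF10, the 4 members ranked 854, 3511, 3573 and 3887, and 2 held the word. In the chemoreceptor gene sre-45 they ranked 744, 960, 3443 and 3572, the first beside a snoRNA gene and the last with 1034 other copies. In cec-2, a chromodomain gene, they ranked 1925, 2162, 3320 and 3790. The third of these ranked 17250 in replicate 1 and 2688 in replicate 2, a wide difference.

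Of all protein-coding genes 3.07% were hosts, and the counts in the lists of germline genes were small. None of 50 listed meiosis genes hosted a member. A bound promoter was found for 34 of the 50, against 14.2% of all protein-coding promoters. Over all genes the members numbered 24.0 per Mb of eligible intron. The meiosis genes together have 62.2 kb of it, where that density gives fewer than 2 members, so the 0 does not set them apart. Of 51 genes of germ granules and small RNA pathways 2 were hosts, csr-1, an Argonaute, at rank 309 and nrde-1, of nuclear RNA interference, at rank 2142. Of 39 germline RNA regulators 2 were hosts, mex-3 at rank 110 and fog-1, which directs germ cells to become sperm, with ranks of 336 and 1940. The latter 2 lists came to 42.3 and 51.6 members per Mb.

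The chromatin list had 4 hosts of 43 genes, met-1, a histone H3 methyltransferase, at rank 542, cfp-1 at 3055, the demethylase gene jmjd-2 at 3436 and lin-9, of the DRM complex, at 3446. The cell cycle list had 3 of 50, the kinesin gene klp-7 at 1014, the cohesin loader gene scc-2 at 1153 and the condensin gene mix-1 at 1317 and 3060. The peak in scc-2 lay 160 bp upstream of an internal start and 8307 bp from the 5′ end, and the first of mix-1 beside a snoRNA gene. These lists came to 37.7 and 45.5 members per Mb.

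Lists of other tissues were hosts at similar shares of genes and lower densities. Signalling genes gave 3 hosts of 49, lit-1 at 206, the Wnt gene lin-44 at 2832 and the Delta-like gene apx-1 at 3794, the last in a window with 1467 other copies. Neuronal genes gave 3 of 58, unc-33, unc-31 and the kinesin gene unc-104 at 1977. Muscle genes gave 2 of 33, the cofilin gene unc-60 at 922, in a window with 1612 other copies, and the syntrophin gene stn-1 at 3616. Per Mb of eligible intron these came to 11.97, 15.7 and 11.1 members. The lists hold 0 to 7 members each, so their densities rest on few peaks and carry no test.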

How the data were processed

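Regions were called on each of 2 biological replicates and on both pooled, on assembly ce11, per the file headers and labels. The sources used here do not give the caller, the aligner, the IDR threshold or the treatment of reads with several matches. Each deposited signal value was used only to rank regions within its list. The deposited −log10 q-value entered no test. Summits come from the deposited summit offset. The deposited lists hold 30000, 26018 and 30000 regions (replicate 1, replicate 2, pooled), and the 3897 IDR peaks are the strongest of the pooled list.

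Genes came from Ensembl release 115 (WBcel235) and bases from RefSeq's copy of that build. Of 19425 shared symbols, 99.4% had the same place in both. Shares have Clopper-Pearson intervals and odds ratios exact conditional intervals, and Fisher's exact tests were two-sided. Benjamini-Hochberg adjustment ran within each family of tests, with a threshold of 0.05. Other copies were counted with blastn 2.17.0 (E-value at most 1e-05). The genes named are the hosts of the 20 strongest members, up to 4 hosts per list, 6 hosts with the most members, 6 genes with an internal start, those at the IDR threshold and those whose sequence is shown. The members, the 8 gene lists (374 entries, with mog-6 not found) and the word were chosen with earlier results of these data known. Alternatives were the upper 50% of the list, single replicates, other windows, midpoints, merged summits, other word settings and, chosen after seeing the data, regions with no other copy, away from noncoding genes or away from internal starts. The results on other copies and on the separate forms of the word, with all their alternatives, were also added after seeing the data. The scripts were tested on simulated data. Scripts ran in Python 3.11.15 (scipy 1.17.1, numpy 2.4.6, matplotlib 3.10.9, pandas 2.3.3).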

Additional observations from a re-analysis of the deposited data

How the results depend on the processing

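Of the alternatives, 162 kept the direction and side of the threshold of the result reported, 7 reversed it, 5 moved a count by over 1.5 times, 3 brought a result past the threshold in the same direction and 1 took it below. The odds ratio of the word stayed between 4.78 and 9.92 against lower-ranked regions and between 1.62 and 2.95 against promoter peaks, and that of other copies between 1.42 and 2.52, and 4.64 and 8.97. First introns stayed between 1.34 and 2.31, internal starts between 1.99 and 3.93, noncoding genes between 2.20 and 3.86 and X between 0 and 0.183. With the upper 50% of the list there were 304 members, and the odds ratio for the top of both replicates was 0.404 (p = 0.136, Fisher's exact test). The odds ratio for a bound host promoter, 0.984, was 0.625 with the upper 50%, 1.007 with no exon of any gene at the summit, 1.09 with a promoter window reaching farther upstream, 1.22 without replicate 1 and 1.02 without replicate 2. For summits in masked repeats it was 1.15 (adjusted p = 0.0901, Fisher's exact test), and 0.733 with the upper 50% (p = 0.00856, Fisher's exact test, the opposite direction and past the threshold), 0.991 with tRNA peaks kept, 1.17 with a window from 500 bp and 1.29 with midpoints. The share of members with the word, 53.9%, was 49.5% without replicate 1, 47.5% with tRNA peaks kept and 32.7% within 25 bp. The C or G form against promoter peaks was 1.04 with midpoints. Words lower than in flanks numbered 23 within 25 bp and 24 with 7-base words, and words lower than at promoter peaks 52 and 73. The cause was not tested. No paired analysis was possible because there is 1 group of samples, so replicate numbers pair none of them across groups.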
